A study of Homo sapiens with 8 samples.

Results

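The genes described here encode ligands of the epidermal growth factor (EGF) family and the 4 ERBB receptors they act on. The list of 10 genes was chosen with results of these data in view. Which values were used is not recorded, and the list is taken here to have been selected on the high level of EREG in T47D cells after XBP1 knockdown. The members were taken as every probe set of the array that carries 1 of these symbols and no other. This gave 38 probe sets for 9 of the 10 genes, out of 41091 probe sets for 19775 genes in all. Of the 6 ligands, 5 had such a probe set (EREG, BTC, HBEGF, TGFA and NRG1), and AREG was not analysed here. All 4 receptors (EGFR, ERBB2, ERBB3 and ERBB4) had at least 1.

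EGF-family ligands are made as membrane-anchored precursors, and proteases of the ADAM family release the soluble growth factor, which binds a receptor, pairs it with another ERBB receptor and switches on its kinase. EREG, BTC, HBEGF and TGFA bind EGFR, and EREG, BTC and HBEGF also bind ERBB4, whereas NRG1 binds ERBB3 and ERBB4. ERBB2 has no known ligand and ERBB3 has a very weak kinase, so both work mainly as partners of other receptors, and signals from all of them run through RAS, ERK and PI3K.

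The arrays measured 4 groups of 2 arrays each, and all cells were in 0.1% oxygen and medium without glucose for 24 h. The groups were MDA-MB-231 shXBP1, MDA-MB-231 shCtrl, T47D shXBP1 and T47D shCtrl. MDA-MB-231 and T47D are human breast cancer cell lines, and every culture had been infected with a lentivirus for a short hairpin RNA, either against XBP1 (shXBP1) or a control (shCtrl), and kept in puromycin. XBP1 drives genes of the unfolded protein response, the reaction of cells to misfolded proteins in the endoplasmic reticulum (ER). The untreated conditions of the study were not analysed here, so every difference is one between stressed cells, and the labels describe 1 XBP1 hairpin without its sequence. The labels call the replicates biological but do not say whether they were separate infections or cultures, so the spread behind each p-value may be technical.

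Values are log2 expression levels after RMA, so 1 unit is a doubling. The median of all values was 5.90, and a level near or under it is called dim here, because the files hold no detection calls and a fold against a dim level understates the change. XBP1 itself (200670_at) read 7.13 and 6.69 in MDA-MB-231 shXBP1 against 10.83 and 10.69 in MDA-MB-231 shCtrl, and 7.52 and 7.16 in T47D shXBP1 against 12.41 and 12.56 in T47D shCtrl. It fell by 3.85 in MDA-MB-231 and by 5.15 in T47D (limma, adjusted p = 4.48e-05 and 1.07e-05), while its dim second probe set (242021_at) differed by 0.19 and -0.23 and passed in neither line. All 10 luminal epithelial markers were above the median of all values in T47D and 4 of 10 in MDA-MB-231, while 9 or 10 of 10 mesenchymal markers were above it in MDA-MB-231 and 3 or 4 of 10 in T47D. Of the leukocyte markers 1 of 4 was above it in each group, with summed levels of 19.5 to 20.6 in MDA-MB-231 and 19.0 to 20.0 in T47D, and 4 of 5 fibroblast and 2 of 4 endothelial markers were above it in each group. With XBP1 knocked down, 2 luminal markers rose and 1 fell in MDA-MB-231 and 2 rose and 4 fell in T47D, while 3 mesenchymal markers rose and 1 fell in MDA-MB-231 and 0 rose and 3 fell in T47D (limma, adjusted p under 0.05), and their part in the results was not tested. Replicate arrays correlated at 0.994 to 0.997 across probe sets. The 3′ minus 5′ signal of the ACTB control probe sets, which grows as RNA degrades, was 0.89 and 1.10 in MDA-MB-231 shXBP1, 1.30 and 1.21 in MDA-MB-231 shCtrl, 0.97 and 1.26 in T47D shXBP1, and 1.03 and 0.97 in T47D shCtrl.

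EREG (epiregulin) lies in a row of EGF-family genes on chromosome 4, where its neighbours among coding genes are EPGN on one side and AREG and then BTC on the other. Promoter sequences from RefSeq (GRCh38.p14) are shown for 3 members: EREG and ERBB4, a ligand and a receptor that both read higher in T47D shXBP1, and HBEGF, the ligand that rose in MDA-MB-231 shXBP1. Each is the 250 bases before the annotated start, 5′ to 3′ on the strand of the gene, at chr4:74364895-74365144 (plus strand) for EREG, chr2:212538803-212539052 (minus strand) for ERBB4 and chr5:140346604-140346853 (minus strand) for HBEGF. Capitals mark a match to any of 4 motifs, each searched on both strands.
EREG: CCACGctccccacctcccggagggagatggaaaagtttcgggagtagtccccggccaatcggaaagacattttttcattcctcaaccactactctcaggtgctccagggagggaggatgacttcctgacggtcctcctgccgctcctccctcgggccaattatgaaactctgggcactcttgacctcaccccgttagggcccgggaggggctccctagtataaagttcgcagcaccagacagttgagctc
ERBB4: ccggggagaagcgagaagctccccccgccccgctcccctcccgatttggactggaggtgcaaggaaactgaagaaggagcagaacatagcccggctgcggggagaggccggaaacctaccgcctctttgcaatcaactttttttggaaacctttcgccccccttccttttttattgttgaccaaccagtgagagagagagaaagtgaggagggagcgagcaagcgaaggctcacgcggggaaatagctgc
HBEGF: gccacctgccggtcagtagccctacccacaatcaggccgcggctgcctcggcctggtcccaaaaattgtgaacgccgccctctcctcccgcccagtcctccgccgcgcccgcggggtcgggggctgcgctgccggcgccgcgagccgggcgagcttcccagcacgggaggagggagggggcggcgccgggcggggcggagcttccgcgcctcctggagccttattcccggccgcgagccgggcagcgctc
The motifs were CCACG (part of the ER stress element), which 33.5% of 35116 RefSeq promoters of this length hold, TGACGTGG (the unfolded protein response element, 0.612%), ACGTG (the core of the hypoxia response element, 18.5%) and TGANTCA (the AP-1 site, 6.57%). CCACG and ACGTG share letters and can overlap. EREG held 1 CCACG, at the far end of the window, and the ERBB4 and HBEGF windows held none of the 4. Among the other members, the ER stress motif stood 2 times before AREG and 1 time before BTC, and the AP-1 motif 1 time before ERBB2 and 2 times before the second of 2 EGFR entries, while neither TGFA entry held any of the 4. A match is a string of letters and not a known binding site, and ERBB3 and NRG1 are named only.

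**Figure D1:**
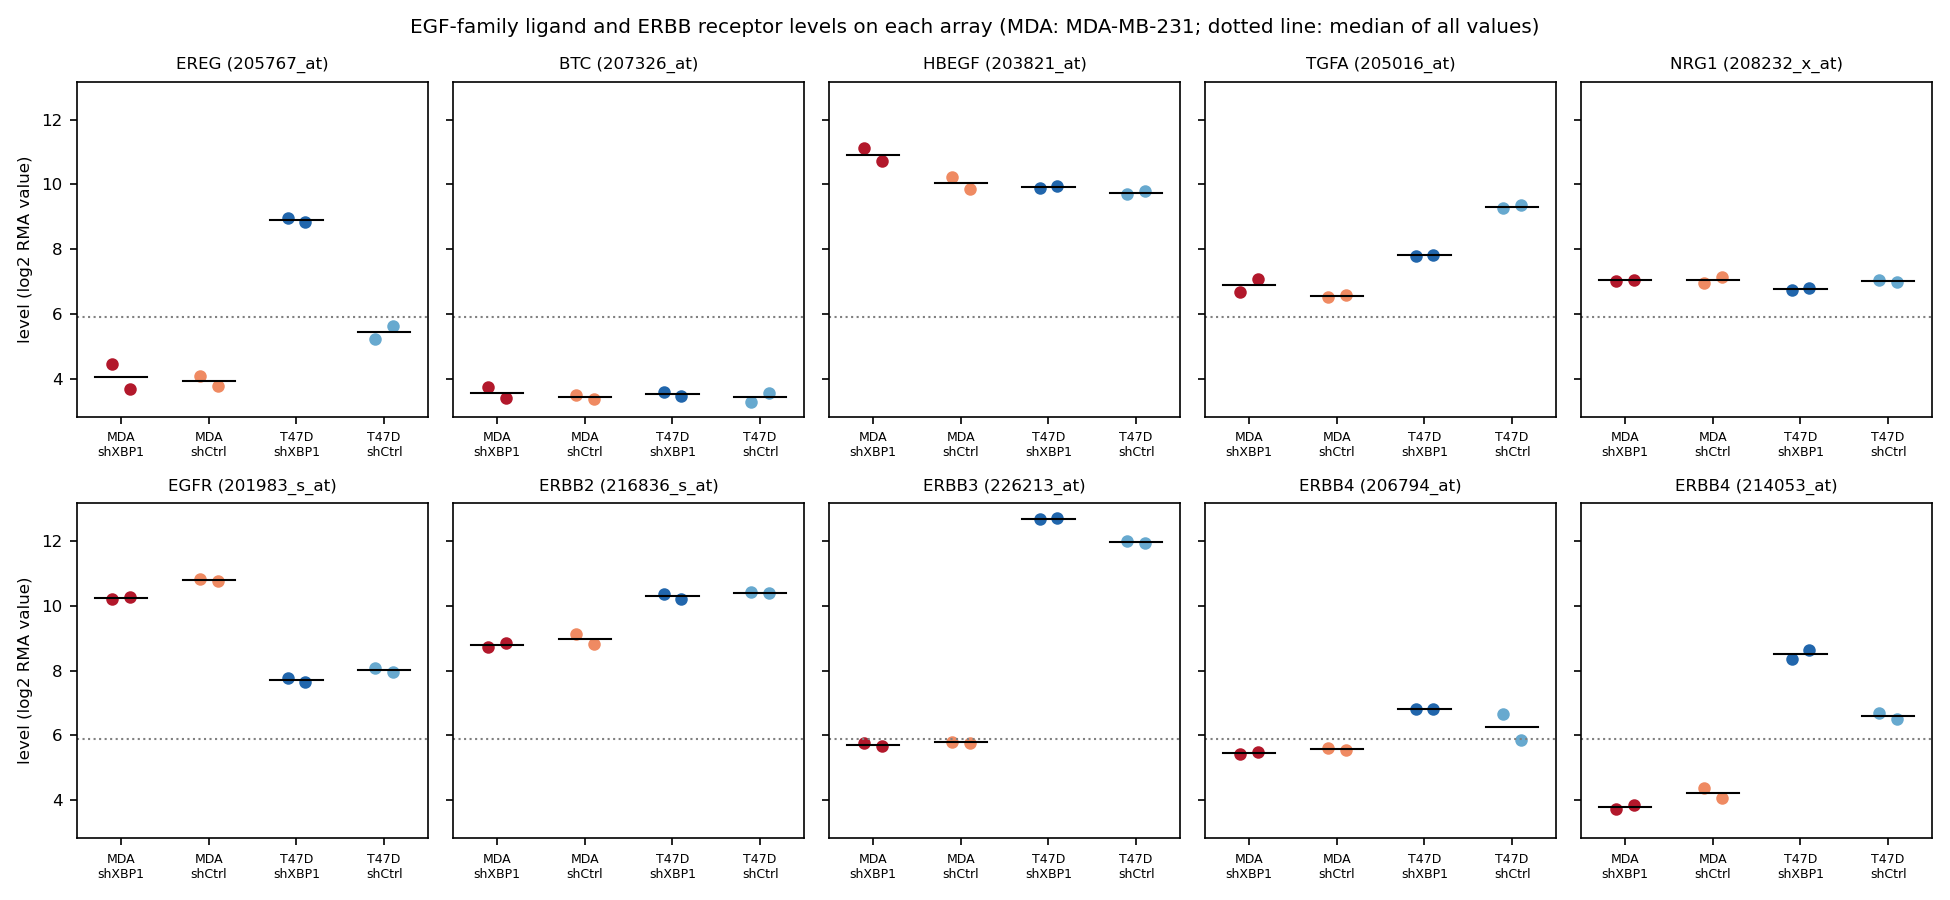
Log2 RMA level (vertical axis) of the 9 genes at their brightest probe set, plus a further ERBB4 probe set (214053_at), in the 4 groups (horizontal axis, MDA meaning MDA-MB-231). Each point is 1 array, black bars are means of 2 arrays and the dotted line is the median of all values (5.90); EREG stands high on the 2 T47D shXBP1 arrays, and ERBB3 is high in T47D and dim in MDA-MB-231.

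In T47D cells, the ligand EREG and the receptors ERBB3 and ERBB4 read higher, and the ligand TGFA lower, with XBP1 knocked down than with the control hairpin. Because this contrast was taken as the one behind the choice of the family, its values are given as a description and without p-values. EREG, a ligand of EGFR and ERBB4, read 8.96 and 8.83 in T47D shXBP1 against 5.23 and 5.64 in T47D shCtrl (205767_at). Both knockdown arrays stood far above both control arrays, and the control level was dim. The difference was 3.46 ± 0.25 on the log2 scale (SE from the fit, 95% interval 2.89 to 4.04), or 11.0-fold, and it was the 4th highest of 19775 genes. As EREG was taken to be chosen for its high level here, neither the interval nor the rank is read as a test, and the difference may be overstated. Each array pools many cells, so a few cells with much EREG RNA and many with little cannot be told apart. The second EREG probe set (1569583_at) stayed dim, at 4.99 and 5.09 in T47D shXBP1 against 4.72 and 4.93 in T47D shCtrl, a difference of 0.22. The mean over both EREG probe sets therefore differed by 1.84.

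TGFA (transforming growth factor alpha, a ligand of EGFR) read 7.79 and 7.83 in T47D shXBP1 against 9.27 and 9.35 in T47D shCtrl (205016_at). Both knockdown arrays lay below both control arrays, and the difference was -1.49 ± 0.14, or 2.81-fold lower, the 142nd lowest of 19775 genes. A second probe set (205015_s_at) read 6.74 and 6.65 in T47D shXBP1 against 7.41 and 7.78 in T47D shCtrl, a difference of -0.90 ± 0.13. The third (211258_s_at) lay near the median of all values, at 5.71 and 5.60 in T47D shXBP1 against 6.07 and 5.78 in T47D shCtrl, and differed by -0.27. All 3 TGFA probe sets had lower values on both knockdown arrays, by unequal amounts, and their mean differed by -0.89.

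The remaining ligands differed little in T47D. HBEGF (heparin-binding EGF-like growth factor) read 9.88 and 9.96 in T47D shXBP1 against 9.71 and 9.79 in T47D shCtrl (203821_at), a difference of 0.17 ± 0.17. BTC (betacellulin) was dim in every group, its 2 probe sets between 3.19 and 3.74 over the 8 arrays, so these probe sets bear little on its RNA. NRG1 (neuregulin 1) had 6 probe sets. The brightest (208232_x_at, a type that can bind several transcripts) read 6.75 and 6.80 in T47D shXBP1 against 7.04 and 6.98 in T47D shCtrl, and the other 5 were dim, with group means of 3.31 to 5.80.

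Among the receptors, ERBB3, the main partner of ERBB2 in binding neuregulin, read 12.68 and 12.71 in T47D shXBP1 against 12.00 and 11.93 in T47D shCtrl (226213_at). The groups did not overlap and differed by 0.73 ± 0.09, or 1.66-fold. A second probe set (202454_s_at) gave nearly the same difference, 0.74 ± 0.10, from 10.87 and 10.86 in T47D shXBP1 against 10.13 and 10.12 in T47D shCtrl. The other 3 ERBB3 probe sets were near or under the median of all values and differed by -0.08 to 0.39.

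ERBB4, a receptor for neuregulins that also binds EREG, HBEGF and BTC, had 3 probe sets that read higher in T47D shXBP1 and a dim one that did not. At 214053_at the level was 8.36 and 8.65 in T47D shXBP1 against 6.69 and 6.51 in T47D shCtrl, a difference of 1.91 ± 0.15, or 3.75-fold. At 233498_at it was 6.92 and 6.84 in T47D shXBP1 against 5.62 and 5.71 in T47D shCtrl, a difference of 1.21 ± 0.18. At 206794_at, the brightest by its mean over the 8 arrays, it was 6.82 and 6.81 in T47D shXBP1 against 6.67 and 5.87 in T47D shCtrl. The 2 control arrays were far apart at this probe set, and the difference of 0.55 ± 0.22 became 0.95 without T47D shCtrl replicate 1 and 0.14 without T47D shCtrl replicate 2. The fourth probe set (233494_at) had group means of 4.03 to 4.18 in all 4 groups.

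EGFR, the receptor for EGF, TGFA and EREG, was represented by 9 probe sets that did not move alike. The brightest (201983_s_at) read 7.78 and 7.66 in T47D shXBP1 against 8.07 and 7.96 in T47D shCtrl, a difference of -0.29 ± 0.10. At 224999_at it was 6.21 and 6.23 in T47D shXBP1 against 6.80 and 6.83 in T47D shCtrl, a difference of -0.59 ± 0.09. At 201984_s_at the groups overlapped, and the difference was 0.08 ± 0.15. The other 6 lay at group means of 5.15 to 5.87 in T47D, near or under the median of all values, and differed by -0.57 to 0.04. Of these, 211607_x_at (-0.57 ± 0.18) and 210984_x_at (-0.18 ± 0.14) read lower on both knockdown arrays, and the groups overlapped at the rest. ERBB2 read 10.37 and 10.22 in T47D shXBP1 against 10.42 and 10.41 in T47D shCtrl (216836_s_at), a difference of -0.12 ± 0.13. A dimmer ERBB2 probe set (234354_x_at) differed by -0.52 ± 0.13, with 6.34 and 6.28 in T47D shXBP1 against 6.81 and 6.84 in T47D shCtrl.

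Counted by the call used for all features (limma, adjusted p under 0.05 over all 41091 probe sets), 9 of 38 member probe sets (23.7%) were called in T47D, against 24.3% of all probe sets. At the brightest probe set of each gene, 2 of 9 members were called higher and 1 lower, where 14.5% of all genes were called higher and 12.3% lower. Since this contrast was taken as the one behind the choice of the family, nothing is read from these counts.

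**Figure D2:**
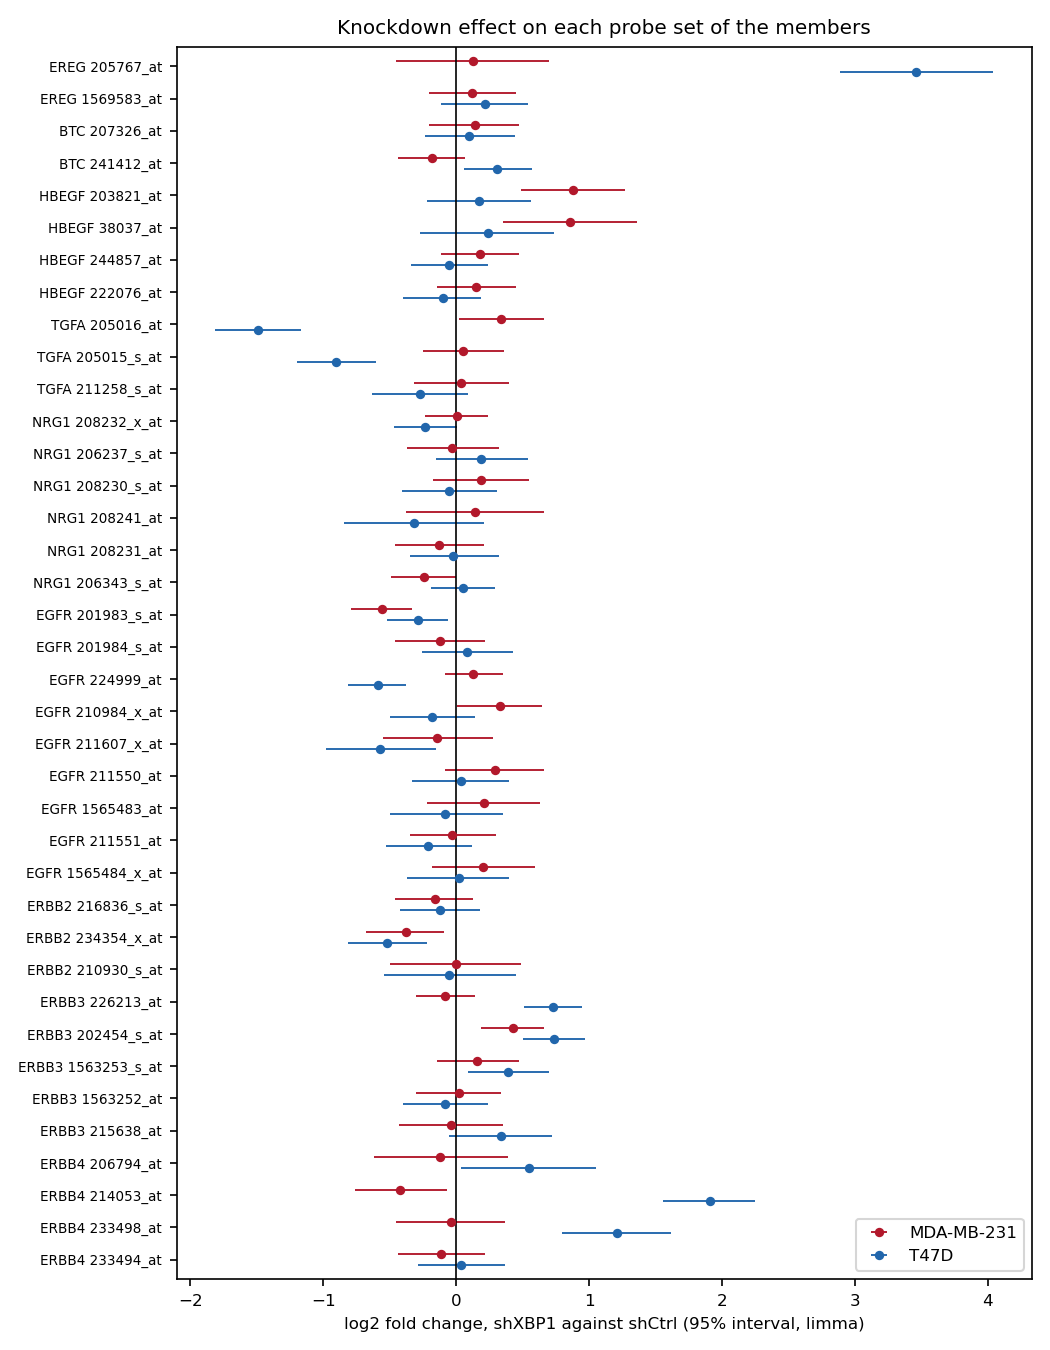
Log2 fold change of shXBP1 against shCtrl (horizontal axis) at each of the 38 member probe sets (vertical axis), in MDA-MB-231 (red) and T47D (blue), with 95% intervals from limma. EREG 205767_at and 3 ERBB4 probe sets lie to the right and 2 TGFA probe sets to the left in T47D, while HBEGF 203821_at and 38037_at lie to the right in MDA-MB-231.

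In MDA-MB-231 cells XBP1 knockdown was accompanied by more HBEGF RNA, and EREG stayed dim. HBEGF, a ligand of EGFR and ERBB4, read 11.13 and 10.71 in MDA-MB-231 shXBP1 against 10.22 and 9.86 in MDA-MB-231 shCtrl (203821_at). The groups did not overlap, and HBEGF rose by 0.88 ± 0.17 on the log2 scale, or 1.84-fold (limma, adjusted p = 0.00979). A second HBEGF probe set (38037_at) rose by 0.86 ± 0.22 (limma, adjusted p = 0.0331), with 10.24 and 9.45 in MDA-MB-231 shXBP1 against 8.98 and 8.98 in MDA-MB-231 shCtrl. The other 2 HBEGF probe sets were dim or near the median of all values, and differed by 0.18 and 0.15 (limma, adjusted p = 0.399 and 0.495). The call at 203821_at was lost when MDA-MB-231 shCtrl replicate 2 was left out (0.70, adjusted p = 0.0501) or MDA-MB-231 shXBP1 replicate 1 (0.67, adjusted p = 0.0561), and that at 38037_at was lost when any 1 array other than MDA-MB-231 shXBP1 replicate 2 was left out (highest adjusted p = 0.114), its value moving to 0.46 without MDA-MB-231 shXBP1 replicate 1. The ACTB 3′ minus 5′ signal also differed between these groups (0.89 and 1.10 in MDA-MB-231 shXBP1, 1.30 and 1.21 in MDA-MB-231 shCtrl), and its part in the MDA-MB-231 results was not tested. The same signal of GAPDH overlapped, with 0.30 and 0.32 in MDA-MB-231 shXBP1 against 0.27 and 0.33 in MDA-MB-231 shCtrl.

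EREG read 4.45 and 3.67 in MDA-MB-231 shXBP1 against 4.09 and 3.77 in MDA-MB-231 shCtrl (205767_at). The groups overlapped at a dim level, and the difference was 0.13 ± 0.25 (95% interval -0.45 to 0.70; limma, adjusted p = 0.796). TGFA read 6.68 and 7.09 in MDA-MB-231 shXBP1 against 6.53 and 6.57 in MDA-MB-231 shCtrl (205016_at). Both knockdown arrays were above both control arrays, but the difference of 0.34 ± 0.14 missed the threshold (limma, adjusted p = 0.150). Without MDA-MB-231 shXBP1 replicate 1 it was 0.55 and passed (adjusted p = 0.0290). BTC and NRG1 had no called probe set in MDA-MB-231, with differences of -0.24 to 0.19 over their 8 probe sets.

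EGFR gave different answers at different probe sets in MDA-MB-231. At the brightest (201983_s_at) it read 10.21 and 10.27 in MDA-MB-231 shXBP1 against 10.82 and 10.78 in MDA-MB-231 shCtrl and fell by 0.56 ± 0.10 (limma, adjusted p = 0.00754). At 224999_at, also bright, it read 9.76 and 9.81 in MDA-MB-231 shXBP1 against 9.60 and 9.70 in MDA-MB-231 shCtrl, a difference of 0.13 ± 0.09 (limma, adjusted p = 0.413). At 201984_s_at the groups overlapped, with a difference of -0.12 ± 0.15 (limma, adjusted p = 0.662). Averaged over its 9 probe sets, EGFR differed by 0.04 (adjusted p = 0.823), so the fall was seen at 1 of 9 probe sets.

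ERBB2 did not pass the test in MDA-MB-231, with 8.74 and 8.86 in MDA-MB-231 shXBP1 against 9.12 and 8.81 in MDA-MB-231 shCtrl (216836_s_at; -0.16 ± 0.13, limma, adjusted p = 0.462). At the dimmer 234354_x_at both knockdown arrays lay below both control arrays, with a difference of -0.38 ± 0.13 (limma, adjusted p = 0.0835). It passed when dim probe sets were left out of the test (adjusted p = 0.0429 and 0.0486 by 2 filters) and, at -0.55, without MDA-MB-231 shCtrl replicate 1 (adjusted p = 0.0400). ERBB3 was dim at 226213_at, with 5.75 and 5.67 in MDA-MB-231 shXBP1 against 5.81 and 5.77 in MDA-MB-231 shCtrl. At 202454_s_at it rose by 0.43 ± 0.10 (limma, adjusted p = 0.0244) between dim levels, 4.16 and 4.32 in MDA-MB-231 shXBP1 against 3.86 and 3.77 in MDA-MB-231 shCtrl. That call was lost without either T47D shXBP1 array, either MDA-MB-231 shCtrl array or MDA-MB-231 shXBP1 replicate 2 (highest adjusted p = 0.102). ERBB4 had no called probe set, and at 214053_at it read 3.72 and 3.86 in MDA-MB-231 shXBP1 against 4.36 and 4.05 in MDA-MB-231 shCtrl, all dim.

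In all, 4 of 38 member probe sets (10.5%) were called in MDA-MB-231, against 15.8% of all probe sets. At the brightest probe set, 1 of 9 members rose and 1 fell, where 9.59% of all genes were called higher and 5.98% lower. With so few genes these counts are near the shares of the whole array, and nothing about the family is read from them.

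The effect of the knockdown was set side by side in both lines. These differences (the effect in MDA-MB-231 less that in T47D) contain the contrast taken as the one behind the choice of the family and carry no p-value. For the same reason an interval that leaves out 0 is not read as a passed test. EREG gave -3.33 ± 0.35 and TGFA 1.83 ± 0.20 at 205016_at. ERBB4 gave -2.32 ± 0.21 at 214053_at, -1.25 ± 0.25 at 233498_at and -0.15 ± 0.20 at the dim 233494_at. At 206794_at, its brightest probe set by the mean, ERBB4 gave -0.66 ± 0.31, where the 95% interval (-1.38 to 0.05) includes 0. ERBB3 gave -0.81 ± 0.13 at 226213_at but -0.31 ± 0.14 at 202454_s_at, where the 95% interval (-0.64 to 0.02) includes 0. HBEGF gave 0.71 ± 0.24 at 203821_at and 0.62 ± 0.31 at 38037_at, where the interval (-0.09 to 1.34) also includes 0. At the second EREG probe set the difference was -0.10 ± 0.20, and at the other TGFA probe sets it was 0.95 ± 0.19 (205015_s_at) and 0.31 ± 0.22 (211258_s_at). EREG, ERBB3 and ERBB4 were dim in MDA-MB-231, where folds are understated.

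With the control hairpin, the lines carried different receptors: MDA-MB-231 had more EGFR, and T47D more ERBB3, ERBB4 and ERBB2. EGFR read 10.82 and 10.78 in MDA-MB-231 shCtrl against 8.07 and 7.96 in T47D shCtrl (201983_s_at) and was higher in MDA-MB-231 by 2.79 ± 0.10, or 6.92-fold (limma, adjusted p = 1.73e-07). Of the 9 EGFR probe sets, 5 were called higher in MDA-MB-231 shCtrl, by 0.99 to 2.84, and 0 lower. ERBB3 read 5.81 and 5.77 in MDA-MB-231 shCtrl against 12.00 and 11.93 in T47D shCtrl, a difference of -6.18 ± 0.09, or 72.3-fold (limma, adjusted p = 6.75e-09), the 47th lowest of 19775 genes. As ERBB3 was dim in MDA-MB-231, that fold understates the difference. At 202454_s_at ERBB3 differed by -6.31 ± 0.10 (limma, adjusted p = 7.02e-09). The remaining ERBB3 probe sets were near or under the median of all values in both lines and did not pass. They differed by 0.02 at 1563253_s_at, -0.20 at 1563252_at and 0.06 at 215638_at (limma, adjusted p = 0.924, 0.288 and 0.823).

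ERBB2 read 9.12 and 8.81 in MDA-MB-231 shCtrl against 10.42 and 10.41 in T47D shCtrl (216836_s_at), lower in MDA-MB-231 by a log2 difference of -1.45 ± 0.13 (limma, adjusted p = 2.73e-05). At 234354_x_at ERBB2 differed by -0.40 ± 0.13 (limma, adjusted p = 0.0326). That call was lost with trend and robust moderation (limma, adjusted p = 0.0534) and with only the 4 arrays of the 2 groups fitted (adjusted p = 0.0717). It was also lost without either T47D shCtrl array, either T47D shXBP1 array or MDA-MB-231 shCtrl replicate 1, with a difference of -0.24 without the last. At 210930_s_at the difference of -0.55 ± 0.22 did not pass (limma, adjusted p = 0.0717). ERBB4 was lower in MDA-MB-231 shCtrl at 3 of 4 probe sets. Its differences were -2.39 ± 0.15 at 214053_at (limma, adjusted p = 3.68e-06), -0.82 ± 0.18 at 233498_at (adjusted p = 0.00524) and -0.69 ± 0.22 at 206794_at (adjusted p = 0.0336). The last call was lost when any 1 array other than T47D shCtrl replicate 2 was left out, and was -0.29 (adjusted p = 0.112) without T47D shCtrl replicate 1.

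Among the ligands, TGFA read 6.53 and 6.57 in MDA-MB-231 shCtrl against 9.27 and 9.35 in T47D shCtrl (205016_at), a difference of -2.76 ± 0.14, or 6.76-fold lower (limma, adjusted p = 1.06e-06). The other TGFA probe sets differed by less, 205015_s_at by -1.18 ± 0.13 (limma, adjusted p = 0.000114) and 211258_s_at by -0.55 ± 0.15 (adjusted p = 0.0185). The call at 211258_s_at was lost without T47D shCtrl replicate 1 or MDA-MB-231 shCtrl replicate 2. EREG differed by -1.50 ± 0.25 at 205767_at and by 0.17 ± 0.14 at 1569583_at, with both lines under the median of all values, and is given without a p-value because the T47D shCtrl arrays entered the choice of EREG. HBEGF was bright in both lines, with 10.22 and 9.86 in MDA-MB-231 shCtrl against 9.71 and 9.79 in T47D shCtrl, and its difference of 0.29 ± 0.17 did not pass (limma, adjusted p = 0.211). BTC and, at its brightest probe set, NRG1 differed by 0.01 and 0.03 (limma, adjusted p = 0.968 and 0.858). Of the dim NRG1 probe sets, 2 were called higher in MDA-MB-231 shCtrl, 206237_s_at by 0.45 ± 0.15 (limma, adjusted p = 0.0386) and 206343_s_at by 0.33 ± 0.11 (adjusted p = 0.0327). Both calls were lost without T47D shCtrl replicate 2, either T47D shXBP1 array or MDA-MB-231 shCtrl replicate 1 (206237_s_at 0.28 and 206343_s_at 0.25 without the last), the first also without either MDA-MB-231 shXBP1 array and the second also without T47D shCtrl replicate 1.

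With XBP1 knocked down, the receptors differed between the lines in the same directions as with the control hairpin, and HBEGF was higher in MDA-MB-231. ERBB3 differed by -6.99 ± 0.09 between MDA-MB-231 shXBP1 and T47D shXBP1 at 226213_at (limma, adjusted p = 4.92e-09) and ERBB2 by -1.50 ± 0.13 at 216836_s_at (adjusted p = 2.09e-05). ERBB4 differed by -1.35 ± 0.22 at 206794_at (limma, adjusted p = 0.00101), -2.07 ± 0.18 at 233498_at (2.13e-05), -4.72 ± 0.15 at 214053_at (9.36e-08) and 0 at the dim 233494_at (0.997). The ERBB3 probe sets 1563253_s_at, 1563252_at and 215638_at did not pass (limma, adjusted p = 0.248, 0.603 and 0.169). The ERBB2 probe sets 234354_x_at and 210930_s_at did not pass either (limma, adjusted p = 0.128 and 0.0913). EGFR was higher in MDA-MB-231 shXBP1, by 2.52 ± 0.10 at 201983_s_at (limma, adjusted p = 2.89e-07) and by 3.57 ± 0.09 at 224999_at (adjusted p = 3.90e-08). HBEGF differed by 1.00 ± 0.17 at 203821_at (limma, adjusted p = 0.00120). TGFA was lower in MDA-MB-231 shXBP1 at 205016_at, by -0.93 ± 0.14 (limma, adjusted p = 0.000605), while 205015_s_at (-0.22, adjusted p = 0.214) and 211258_s_at (-0.24, adjusted p = 0.248) did not pass. EREG read 4.45 and 3.67 in MDA-MB-231 shXBP1 against 8.96 and 8.83 in T47D shXBP1, a difference of -4.84 ± 0.25 given without a p-value because it contains the T47D shXBP1 arrays behind the choice of EREG.

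**Figure D3:**
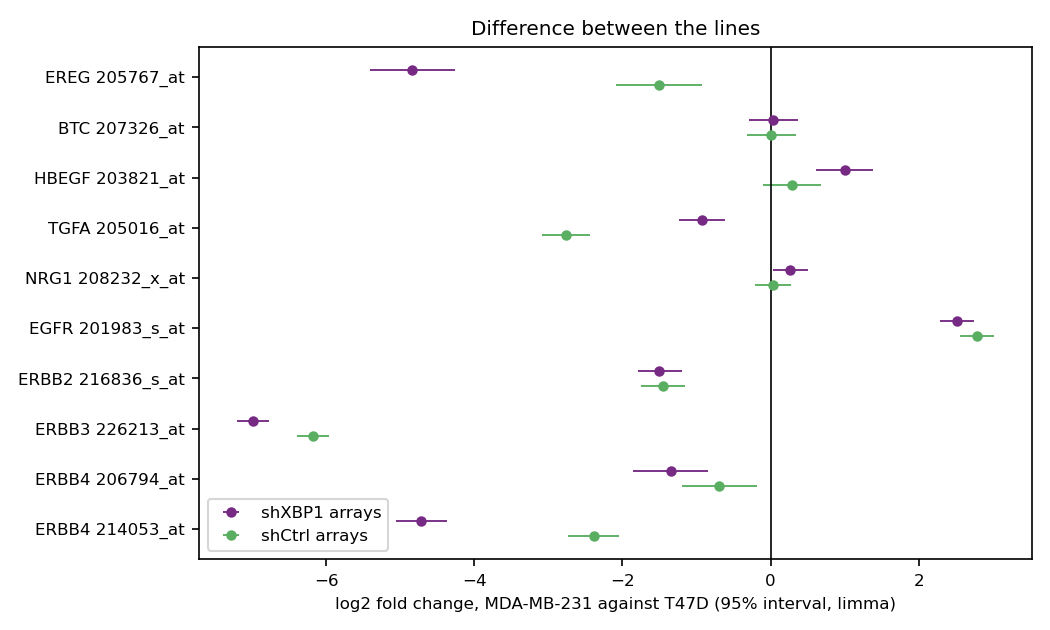
Log2 fold change of MDA-MB-231 against T47D (horizontal axis) for the 9 genes at their brightest probe set and ERBB4 214053_at (vertical axis), between the shXBP1 groups (purple) and between the shCtrl groups (green), with 95% intervals from limma. EGFR lies to the right of 0 and ERBB2, ERBB3, ERBB4, TGFA and EREG to its left with both hairpins.

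In the shCtrl groups 18 of 38 member probe sets (47.4%) were called between the lines, against 44.4% of all probe sets, and in the shXBP1 groups 18 of 38 (47.4%), against 46% of all. At the brightest probe set, 1 of 9 members was higher and 5 lower in MDA-MB-231 shCtrl than in T47D shCtrl, EREG among the lower ones, where 22.9% of all genes were higher and 24.5% lower. In the shXBP1 groups 2 were higher and 5, again with EREG, lower, where 24.9% of all genes were higher and 24.3% lower. EREG is counted only by the call used for all features. Because the T47D arrays entered its choice, its place in these counts is not read as a passed test. Calls between these lines are so common that the number of members called is not a result about the family.

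By level, the groups put EREG in the order T47D shXBP1 (8.90 ± 0.09, SD, n = 2), T47D shCtrl (5.43 ± 0.29), MDA-MB-231 shXBP1 (4.06 ± 0.55) and MDA-MB-231 shCtrl (3.93 ± 0.23), and the last 2 did not differ beyond their spread. The genes whose levels ran most like EREG over the 8 arrays were FRK (Pearson r = 0.9942), a tyrosine kinase, SLC19A2 (0.9928), a thiamine transporter, and CRISP3 (0.9927), a secreted protein. They came from 2893 genes with a range of at least 2 log2 units, and CRISP3 averaged 10.18 in T47D shXBP1, 5.70 in T47D shCtrl, 3.60 in MDA-MB-231 shXBP1 and 3.68 in MDA-MB-231 shCtrl. For ERBB3 the closest were SLC40A1, an iron exporter (0.9999), AGR3, a protein disulfide isomerase family member (0.9997), and SHISA2 (0.9994). These correlations rest on 4 groups of 2 arrays and are a description.

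The other genes of the pathway were read from 5 lists: other ligands, proteins that shed ligands, adaptors and kinases, feedback inhibitors, and genes that ERK signalling induces. Their counts stand beside the shares of all genes called, given above for each comparison. Of 4 other EGF-family ligands measured, EGF rose in T47D by 0.85 ± 0.24 (limma, adjusted p = 0.0344), to 5.88 ± 0.36 in T47D shXBP1 against 5.03 ± 0.19 in T47D shCtrl (SD, n = 2), both dim. That call was lost without either T47D shCtrl array or T47D shXBP1 replicate 2 (highest adjusted p = 0.216). In MDA-MB-231, limma called 0 of the 4, and 0 had an unadjusted p under 0.05. Between the shCtrl groups it called 0 of 4, with 2 at an unadjusted p under 0.05. Between the shXBP1 groups EGF was lower in MDA-MB-231, by -1.62 ± 0.24 (limma, adjusted p = 0.000577), and NRG4, a ligand of ERBB4, was higher by 0.75 ± 0.23 (adjusted p = 0.0279) at dim levels. The NRG4 call was lost without either T47D shXBP1 array or MDA-MB-231 shXBP1 replicate 1, and its difference ran from 0.42 to 1.08 when arrays were left out.

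Of 8 genes for the release of ligands, 4 rose and 1 fell with XBP1 knockdown in each line. The list's median was 0.39 in MDA-MB-231 and 0.34 in T47D, beside 0.03 and -0.02 for all genes. In MDA-MB-231 the protease ADAM9 rose by 1.78 ± 0.13 (limma, adjusted p = 0.000204), to 12.27 ± 0.25 in MDA-MB-231 shXBP1 against 10.49 ± 0.08 in MDA-MB-231 shCtrl. ADAM10, the main protease for EGF and BTC in mouse cells, rose there by 0.91 ± 0.10 (limma, adjusted p = 0.000973). TIMP3, an inhibitor of ADAM17, also rose there, by 1.01 ± 0.22 (limma, adjusted p = 0.0177), a call lost without any 1 of the 4 MDA-MB-231 arrays. In T47D, ADAM17, the protease that releases TGFA, HBEGF and EREG in mouse cells, rose by 1.14 ± 0.10 (limma, adjusted p = 0.000152), to 10.07 in T47D shXBP1 against 8.93 in T47D shCtrl. RHBDF2, which carries ADAM17 to the cell surface, rose there by 0.87 ± 0.09 (adjusted p = 0.000360), and FRMD8, which stabilises that complex, fell by 0.91 ± 0.13 (adjusted p = 0.00155). Between lines, 3 of the 8 were higher and 3 lower in MDA-MB-231 shCtrl, ADAM9 by -2.21 ± 0.13. Fewer of these genes rose in MDA-MB-231 whichever of the 8 arrays was left out. Fewer rose in T47D without T47D shCtrl replicate 1 or either T47D shXBP1 array. The falling gene in MDA-MB-231 was lost without either T47D shXBP1 array, either MDA-MB-231 shCtrl array or MDA-MB-231 shXBP1 replicate 1.

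Of 15 measured adaptors and kinases downstream of the receptors, 1 rose and 3 fell in MDA-MB-231, and 3 rose and 4 fell in T47D. The median was 0.04 in MDA-MB-231 and 0.16 in T47D (0.03 and -0.02 for all genes). In T47D the largest rises were of PIK3R1, the regulatory subunit of PI3K, by 1.90 ± 0.19 (limma, adjusted p = 0.000289), to 10.87 ± 0.18 in T47D shXBP1 against 8.98 ± 0.16 in T47D shCtrl, and of GAB1, a docking protein of EGFR, by 1.26 ± 0.16 (adjusted p = 0.000947). AKT2 fell there by 0.65 ± 0.11 (adjusted p = 0.00295). In MDA-MB-231 SOS1, an activator of RAS, rose by 1.15 ± 0.13 (limma, adjusted p = 0.00101), and the kinase ARAF fell by 0.91 ± 0.10 (adjusted p = 0.000930). The adaptor SHC1 fell by 0.51 ± 0.10 (adjusted p = 0.0105), a call lost without MDA-MB-231 shCtrl replicate 1 or MDA-MB-231 shXBP1 replicate 1. PIK3R1 and GAB1 were also the members of the list furthest apart between the shXBP1 groups, lower in MDA-MB-231 by -5.77 ± 0.19 and -3.12 ± 0.16. The falling genes were 1 in MDA-MB-231 without MDA-MB-231 shCtrl replicate 1 or MDA-MB-231 shXBP1 replicate 1, and 1 or 2 in T47D without any 1 of the 4 T47D arrays. The rising genes were 2 in MDA-MB-231 without MDA-MB-231 shCtrl replicate 2.

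Of 13 feedback inhibitors of receptor and ERK signalling, 4 rose and 5 fell in MDA-MB-231, and 5 rose and 2 fell in T47D. The median was -0.30 in MDA-MB-231 and 0.28 in T47D (0.03 and -0.02 for all genes). DUSP4, a phosphatase that switches off ERK, fell in MDA-MB-231 by 1.50 ± 0.10 (limma, adjusted p = 0.000167), to 10.79 ± 0.01 in MDA-MB-231 shXBP1 against 12.29 ± 0.08 in MDA-MB-231 shCtrl. It also fell in T47D, by 1.35 ± 0.10 (adjusted p = 9.58e-05), to 9.03 ± 0.01 in T47D shXBP1 against 10.38 ± 0.12 in T47D shCtrl. In MDA-MB-231 SPRED1 fell by 1.39 ± 0.14 (limma, adjusted p = 0.000550) and DUSP6 rose by 0.91 ± 0.10 (adjusted p = 0.00101). In T47D the Sprouty genes SPRY2 and SPRY1, inhibitors of receptor signalling, rose by 1.03 ± 0.10 (adjusted p = 0.000249) and 0.77 ± 0.11 (adjusted p = 0.00136). LRIG1, which promotes the breakdown of ERBB receptors, was far lower in MDA-MB-231 shCtrl than in T47D shCtrl (-4.73 ± 0.11; limma, adjusted p = 2.13e-08), whereas SPRY2 was higher by 3.81 ± 0.10 (adjusted p = 3.79e-08). The falling genes in MDA-MB-231 were 2 or 3 whichever of the 8 arrays was left out, and 3 with a replicate block, 2 with only the 4 MDA-MB-231 arrays fitted and 7 with dim probe sets left out of the test. The rising genes were 1 in MDA-MB-231 with the mean over the probe sets of each gene. They were 2 in MDA-MB-231 without MDA-MB-231 shCtrl replicate 2 or MDA-MB-231 shXBP1 replicate 1, and 3 in T47D without T47D shXBP1 replicate 2.

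Of 12 genes induced by ERK signalling, 2 rose and 2 fell in MDA-MB-231, and 3 rose and 4 fell in T47D. The median was -0.05 in MDA-MB-231 and -0.24 in T47D (0.03 and -0.02 for all genes). EGR1, an immediate early transcription factor, rose in MDA-MB-231 by 2.04 ± 0.24 (limma, adjusted p = 0.00120), to 11.84 ± 0.14 in MDA-MB-231 shXBP1 against 9.81 ± 0.02 in MDA-MB-231 shCtrl. FOS rose there by 0.43 ± 0.10 (adjusted p = 0.0232) and PHLDA1 fell by 0.52 ± 0.11 (adjusted p = 0.0136), both calls that were lost without MDA-MB-231 shCtrl replicate 1 or MDA-MB-231 shXBP1 replicate 1, and that of FOS also without MDA-MB-231 shXBP1 replicate 2 or either T47D shXBP1 array. In T47D, FOS fell by 1.05 ± 0.10 (limma, adjusted p = 0.000214) and PHLDA1 by 0.89 ± 0.11 (adjusted p = 0.000643), while EPHA2 rose by 0.93 ± 0.12 (adjusted p = 0.000961). Between the shCtrl groups 9 of the 12 were higher and 2 lower in MDA-MB-231, with a median of 1.75 beside 0.01 for all genes. The largest were ETV5 (4.83 ± 0.14), PLAUR (4.42 ± 0.11) and EGR1 (4.23 ± 0.24). Between the shXBP1 groups 7 were higher and 1 lower in MDA-MB-231, with EGR1 apart by 6.75 ± 0.24. In MDA-MB-231 both counts dropped to 0 or 1 without MDA-MB-231 shCtrl replicate 1, either MDA-MB-231 shXBP1 array or either T47D shXBP1 array, and in T47D 1 gene rose and 2 fell without T47D shXBP1 replicate 2.

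**Figure D4:**
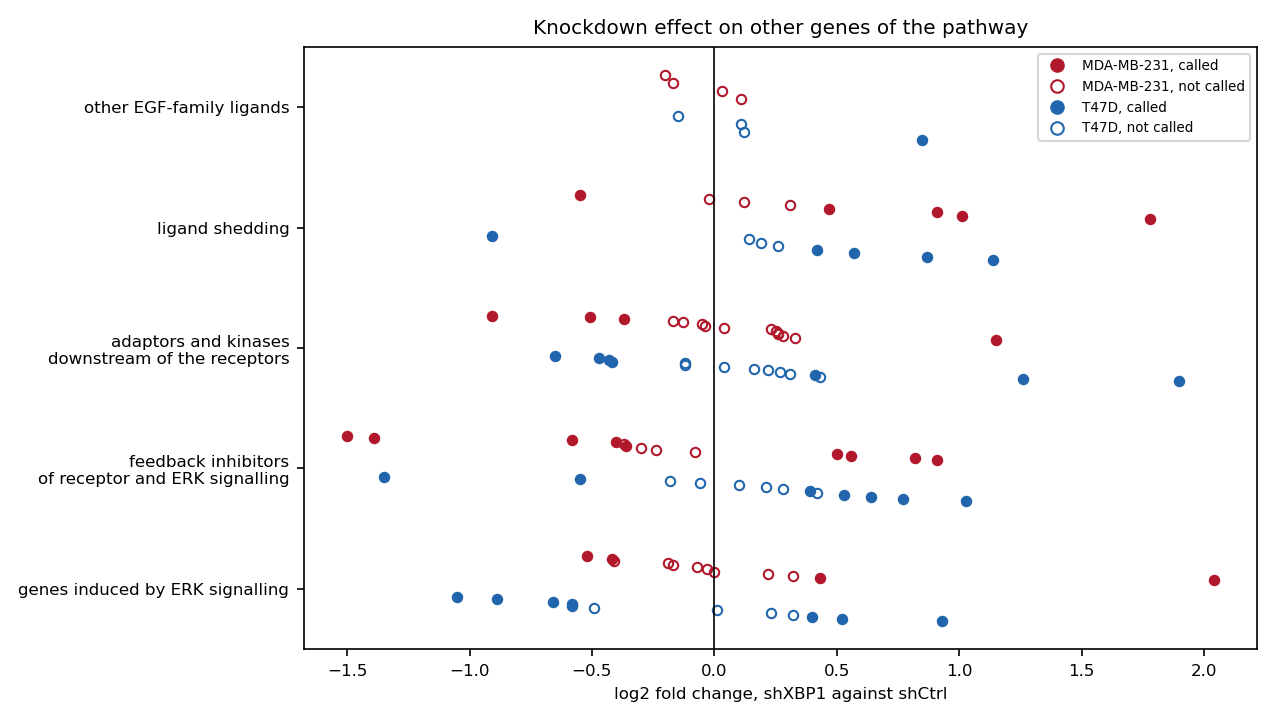
Log2 fold change of shXBP1 against shCtrl (horizontal axis) for each measured gene of the 5 pathway lists (vertical axis), in MDA-MB-231 (red) and T47D (blue); filled points have an adjusted p under 0.05 and height within a row only separates the points. Filled points stand on both sides of 0 in every list but that of other ligands, and EGR1 (2.04) is furthest to the right in MDA-MB-231.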

How the data were processed

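RNA of 8 samples was measured on 1-colour Affymetrix arrays, 1 per sample, and groups and replicate numbers came from the labels. The authors deposited 1 table of log2 values per probe set, made by RMA with affy 1.30.0, per the submitters' processing notes. RMA corrects background, normalizes by quantiles and summarises probes, and these steps compress folds at dim levels. The sources used here do not say over which arrays RMA was run. The values were used as deposited.

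Of 54675 probe sets, 41091 carried 1 symbol in the supplied annotation and were tested, 1801 carried several and 11721 were unnamed here. Each of 19775 genes was represented by its brightest probe set by mean over the 8 arrays. The 4 group means were fitted with limma 3.58.1 in R 4.3.3 (lmFit, eBayes), with 4 residual degrees of freedom. Tests were two-sided, adjusted by Benjamini-Hochberg over all probe sets and called under 0.05. An exact permutation of 2 against 2 arrays cannot give a p under 0.333. The number of arrays limits the precision. The fit was tested on simulated data.

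The members and the lists were chosen with earlier results of these data known. Named genes were XBP1, all member probe sets and, per list and comparison, up to 3 called genes with the largest change (without a call, the 1 with the smallest p). The most alike genes were the 3 with the highest Pearson r. Alternatives were the replicate block, moderation, normalization, dim filters, the probe sets used, the arrays fitted and leaving out each array.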

Additional observations from a re-analysis of the deposited data

Results flagged for a closer look

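At 8 member probe sets both shXBP1 arrays lay on one side of both shCtrl arrays in MDA-MB-231 and on the other side in T47D. That is 21.1% of the member probe sets, against 17.2% of all 41091 probe sets, so the share is near that of the whole array. These opposite positions of the arrays were not tested, because the T47D contrast was taken as the one behind the choice of the family. At none of the 8 was the effect in MDA-MB-231 called. That effect was 0.34 at TGFA 205016_at, 0.05 at TGFA 205015_s_at, -0.42 at ERBB4 214053_at and -0.12 at ERBB4 206794_at. It was -0.08 at ERBB3 226213_at, 0.13 at EGFR 224999_at, 0.33 at EGFR 210984_x_at and -0.18 at BTC 241412_at. The effect in MDA-MB-231 less that in T47D was 1.83 ± 0.20 (SE) at TGFA 205016_at and 0.95 ± 0.19 at TGFA 205015_s_at. It was -2.32 ± 0.21 at ERBB4 214053_at, -0.66 ± 0.31 at ERBB4 206794_at and -0.81 ± 0.13 at ERBB3 226213_at, all 3 dim in MDA-MB-231. The other bright ERBB3 probe set in T47D (202454_s_at) did not move in opposite ways, with effects of 0.43 in MDA-MB-231 and 0.74 in T47D. The difference of the effects was 0.73 ± 0.13 at EGFR 224999_at, 0.51 ± 0.20 at EGFR 210984_x_at and -0.50 ± 0.16 at the dim BTC 241412_at. The brightest EGFR probe set (201983_s_at) differed the same way in both lines, by -0.56 in MDA-MB-231 and -0.29 in T47D.

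Of the 23 genes named from the pathway lists in the knockdown comparisons, 17 had effects that differed between the lines by limma's test of the difference itself (adjusted p under 0.05). These genes were named mostly for a large called effect in 1 line, which favours a difference between lines. The same test called 22.5% of all 19775 genes and 59.8% of the 6925 genes called in at least 1 of the knockdown comparisons, so their number says little about the pathway. Among genes of ligand release the difference was 1.22 for ADAM9 (adjusted p = 0.00299), 0.65 for ADAM10 (0.0155), -0.83 for ADAM17 (0.00451) and -0.90 for RHBDF2 (0.00237). ADAM9 and ADAM10 thus had the larger effect in MDA-MB-231, and ADAM17 and RHBDF2 in T47D. Among adaptors and kinases it was -1.64 for PIK3R1 (adjusted p = 0.00403), -1.07 for ARAF (0.00168), -0.98 for GAB1 (0.0194), -0.55 for SHC1 (0.0251), 0.52 for AKT2 (0.0436) and 0.83 for SOS1 (0.0147). Among feedback inhibitors it was -1.68 for SPRED1 (adjusted p = 0.000875), -1.39 for SPRY2 (0.000562), -1.16 for SPRY1 (0.00149) and 1.09 for DUSP6 (0.00171). Among genes induced by ERK it was 2.53 for EGR1 (adjusted p = 0.00172), 1.48 for FOS (0.000437) and -0.70 for EPHA2 (0.0214).

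The tests for ADAM10, AKT2, GAB1, SHC1, SOS1 and EPHA2 missed the threshold without at least 1 array, with highest adjusted p-values of 0.0635, 0.157, 0.0725, 0.0882, 0.0586 and 0.0806 in that order, and the other 11 passed whichever of the 8 arrays was left out. The ACTB 3′ minus 5′ signal was lower in MDA-MB-231 shXBP1 than in MDA-MB-231 shCtrl, and its part in these differences was not tested.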

How the results depend on the processing

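The number of members called moved by over 1.5 times in 1 comparison. In MDA-MB-231 it was 2, and 1 with the mean over the probe sets of each gene, and it ranged from 1 to 2 when arrays were left out (1 without MDA-MB-231 shCtrl replicate 2). EGFR turned from -0.56 at its brightest probe set to 0.04 with the mean over its probe sets, where the other 8 are included. With a replicate block the members called were 2 in MDA-MB-231, 3 in T47D, 6 between the shCtrl groups and 7 between the shXBP1 groups, the same as without it. The deviations of arrays with the same number correlated at -0.057 to 0.026 over all probe sets, so no pairing was seen across the array. A pairing limited to some genes or some groups could not be seen this way. Over 2737 values of the member probe sets under the alternatives, 56 lost a call, 19 gained one, 134 others moved by over 1 SE and 1 reversed. Of 680 list counts, 72 moved by over 1.5 times. Representing a gene by its brightest probe set in any group was an alternative chosen after seeing the data, and it gave 4 members called in T47D, through ERBB4 214053_at. With 2 arrays a group and no detection calls, the data give no limit for dim genes such as BTC, or EREG, ERBB3 and ERBB4 in MDA-MB-231.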
